A study of Mus musculus with 6 samples.

Results

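The genes described here are 10 genes of iron handling and heme turnover: Fth1, Ftl1, Tfrc, Steap3, Slc11a2, Slc40a1, Slc11a1, Hmox1, Blvrb and Fech. They were chosen by name for their roles, at a time when earlier results of these data were known, and were found among the 24965 genes of the deposited expression table by Ensembl identifier. All 10 passed the filter on low values, an FPKM above 1 in at least 1 library. FPKM is the number of fragments of a gene scaled by its exon length and by the fragments sequenced in the library.

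RNA-seq was performed on donor cells taken back from their recipients at 6 h after transplantation of bone marrow (BMT), with 3 WT and 3 Hemgn-/- libraries. Donors were C57BL/6 mice carrying CD45.2, and Hemgn-/- donors bore a whole-body disruption of Hemgn made with zinc finger nucleases. Hemgn encodes a hematopoietic nuclear protein. All recipients were CD45.1 mice irradiated with a split dose of 9 Gy, so that both groups share the irradiated host, the injection and the sort. The labels describe the sorted cells as CD45.2+Lin-Sca-1+, the study describes LSK cells, which also carry c-Kit, and by the methods of the study the mice were young adults of both sexes. The study calls the 3 libraries of a group biological replicates, but whether a library came from 1 animal or several was not stated, so p-values measure the spread between these libraries.

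Cells take up transferrin-bound iron through the transferrin receptor, reduce it in the endosome, carry it to the cytosol, and then use it, store it in ferritin or export it through ferroportin. Iron regulatory proteins bind hairpins called iron-responsive elements in the mRNAs of several of these genes, where they block translation from a 5' UTR or stabilise the mRNA from a 3' UTR. Heme is completed by ferrochelatase in mitochondria, is opened by heme oxygenase to release iron, carbon monoxide and biliverdin, and in macrophages of the marrow and spleen this breakdown recycles the iron of old red cells.

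Iron-responsive elements that a strict search found in 4 members are shown, because iron regulatory proteins bind such elements. Elements with another form of stem are missed by this search, so other members may hold one. Annotated UTRs were searched on the transcript strand for CNNNNNCAGTGN with all 5 bases between the bulged C and the loop able to pair, G-T pairs allowed. Matches were found in the 5' UTRs of Fth1, Ftl1 and Slc40a1 and in the 3' UTR of Tfrc, which held 4. In the lines that follow, taken from the GENCODE M21 transcripts of GRCm38 and written 5' to 3', capitals mark the loop.
Fth1, 5' UTR, chr19:9982733-9982760, plus strand: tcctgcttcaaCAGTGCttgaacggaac
Ftl1, 5' UTR, chr7:45459779-45459806, minus strand: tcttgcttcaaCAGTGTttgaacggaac
Slc40a1, 5' UTR, chr1:45925465-45925492, minus strand: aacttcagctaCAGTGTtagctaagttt
Tfrc, 3' UTR, element 1, chr16:32631220-32631247, plus strand: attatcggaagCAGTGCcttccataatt
Tfrc, 3' UTR, element 2, chr16:32631599-32631626, plus strand: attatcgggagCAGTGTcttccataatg
Tfrc, 3' UTR, element 3, chr16:32631664-32631691, plus strand: tatatcggagaCAGTGAtctccatatgt
Tfrc, 3' UTR, element 4, chr16:32631711-32631738, plus strand: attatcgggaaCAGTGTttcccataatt

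By the same search, 31 of 20899 genes with an annotated 5' UTR (0.148%) and 129 of 21025 genes with an annotated 3' UTR (0.614%) held a match. Alas2, a gene of heme synthesis that is not a member and is described later, also held a match in its 5' UTR, which is not shown. No match was found in Hmox1, Blvrb, Slc11a1, Slc11a2, Steap3 or Fech. This says only that their annotated UTRs do not hold these letters with a fully pairing stem, and an element with an imperfect stem would be missed. A match is a description of the sequence and was not set against any measure of protein binding.

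Before the members are described, the disrupted gene and the sorted population were checked. Hemgn was listed at 5.64, 2.96 and 4.68 FPKM in WT and at 0.755, 0.913 and 1.60 FPKM in Hemgn-/- libraries, and its log2 difference was -1.37 ± 0.23 (SE, adjusted p = 0.0114, limma). The edit leaves most of the transcript in place, so fragments of it can still be counted. The sources of the residual fragments and of the fall were not tested. Depth, worked out from the whole steps in which low values rose, was 23668015 to 28897360 fragments per library. In all 6 libraries granulocyte transcripts stood far above those of HSPCs. The granule gene Ngp was at 43176 to 46692 FPKM in WT and 26488 to 27961 FPKM in Hemgn-/- libraries, while Kit was at 5.50 to 7.24 FPKM and Flt3 at 0.497 to 1.41 FPKM. The libraries therefore do not show the profile of a pure HSPC sort, and the cells are called donor cells in what follows.

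Fech was the member with an adjusted p under 0.05, and Slc11a1 fell just short of this threshold (adjusted p = 0.0525, limma). Ferrochelatase mRNA in Hemgn-/- donor cells was 0.603 of the WT level on the log2(FPKM + 1) scale used for all differences given here, whereas the ferritin, transferrin receptor, ferroportin and heme oxygenase genes had 95% intervals that include no difference. In the fit across all genes, 1 of 10 members had an adjusted p under 0.05, against 6.46% of the 13739 genes tested in either direction, 2.09% in the lower and 4.37% in the higher direction. The share of members called is close to that background, so the count itself is no result about the members. The median log2 difference of the members was -0.02, and that of all genes tested was 0.09.

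**Figure D1:**
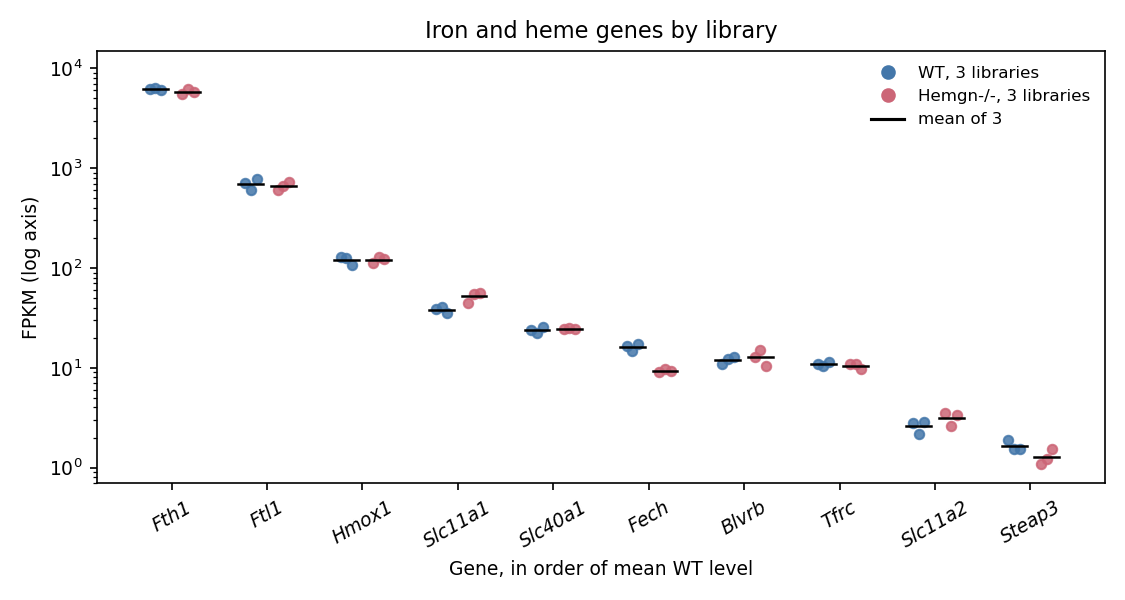
FPKM of each member on a log axis, by library, for 3 WT (blue) and 3 Hemgn-/- (red) libraries, with a black line at the mean of each group; genes are in order of their WT mean. The groups lie apart for Fech, with WT at 14.8 to 17.3 FPKM and Hemgn-/- at 9.12 to 9.63 FPKM, and for Slc11a1, and overlap for the other 8 genes.

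Fech (chr18:64452914-64490251, minus strand) encodes ferrochelatase, which inserts iron into protoporphyrin IX in the last step of heme synthesis. It was at 16.6, 14.8 and 17.3 FPKM in WT libraries and at 9.12, 9.63 and 9.36 FPKM in Hemgn-/- libraries. Every Hemgn-/- library was below every WT library, and the Hemgn-/- libraries lay close together. The means were 16.2 ± 1.29 and 9.37 ± 0.254 FPKM (SD, n = 3 each). Fech fell by 0.73 on the log2 scale (SE 0.10, 95% interval -0.95 to -0.51, adjusted p = 0.00408, limma with Benjamini-Hochberg adjustment over all genes). The study's thresholds, an unadjusted p under 0.05 and 1.5-fold, were also applied to these limma p-values and log2(FPKM + 1) differences. Fech was the member that passed, as did 6.83% of all genes tested. The study's own test was not repeated, so this is not its call. Fech kept an adjusted p under 0.05 under all 15 alternatives of processing, with differences from -0.82 to -0.68.

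Heme synthesis begins in mitochondria with 5-aminolevulinate synthase, of which Alas1 is the general form and Alas2 the erythroid form. Alas1 was at 76.3, 75.4 and 84.7 FPKM in WT and 84.6, 65.1 and 68.8 FPKM in Hemgn-/- libraries, and the groups overlapped (log2 difference -0.12, adjusted p = 0.559, limma). Alas2 was at 38.1, 29.3 and 25.9 FPKM in WT and at 1.77, 2.85 and 2.00 FPKM in Hemgn-/- libraries. Alas2 thus fell in every Hemgn-/- library, by 3.32 on the log2 scale (SE 0.17, adjusted p = 2.78e-05, limma).

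Enzymes between these steps are given, outside the rule for named genes, because Fech ends their chain. Alad, which joins the first precursors into a pyrrole, was at 18.9 to 21.5 FPKM in WT and 15.0 to 16.6 FPKM in Hemgn-/- libraries without overlap, but did not pass the test (log2 difference -0.32, adjusted p = 0.0782, limma). Uros and Urod, which close and modify the porphyrin ring, had log2 differences of 0.21 and 0.05 and did not pass the test. Ppox, the enzyme just before ferrochelatase, was at 17.2 to 18.0 FPKM in WT and 18.4 to 22.1 FPKM in Hemgn-/- libraries, a log2 difference of 0.21 (adjusted p = 0.245, limma). Cpox stayed under 1 FPKM in every library and was not tested. Of the enzymes given, then, the erythroid first step and the last step passed the test, and whether their differences are unlike those of the other enzymes was not tested.

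**Figure D2:**
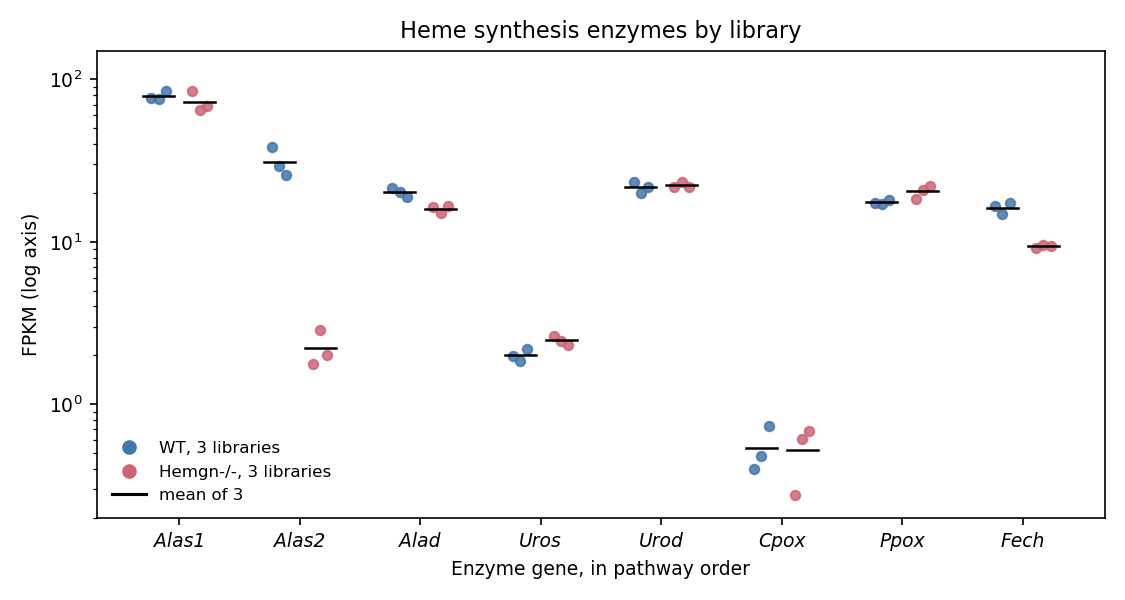
FPKM on a log axis of enzymes of heme synthesis in pathway order, for 3 WT (blue) and 3 Hemgn-/- (red) libraries, with a black line at each mean. Alas2 drops from between 25.9 and 38.1 to between 1.77 and 2.85 FPKM, and Fech from between 14.8 and 17.3 to between 9.12 and 9.63 FPKM.

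Some markers of red cell precursors fell, as Fech did, but most of those tested did not pass the test. Of 23 erythroid markers, 14 were tested, 5 fell and none rose, with a median log2 difference of -0.53. Those that fell were the 4 globin genes and Alas2, whereas Car2 (log2 difference 0.04), Gata1 (0.13) and Klf1 (-0.10) did not pass the test. The globin genes summed to 420.3 to 513.3 FPKM in WT and 22.3 to 35.0 FPKM in Hemgn-/- libraries. The 18 markers left without globin genes and Alas2 summed to 57.8 to 64.4 FPKM in WT and 52.6 to 63.1 FPKM in Hemgn-/- libraries, which overlap. No marker of the list was at 0 in all libraries. The part of erythroid cells in the Fech result was not tested, and in such bulk samples fewer cells of a type and less RNA per cell cannot be told apart.

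Ferritin, the cage that stores iron, is made of a heavy chain with ferroxidase activity (Fth1, chr19:9980598-9985098, plus strand) and a light chain (Ftl1, chr7:45457944-45459884, minus strand). Fth1 was at 6211, 6344 and 6025 FPKM in WT and at 5501, 6272 and 5774 FPKM in Hemgn-/- libraries. It ranked between place 4 and 7 of all genes in each library and took 1.60 to 1.75% of all FPKM. The log2 difference was -0.08 (95% interval -0.22 to 0.05, adjusted p = 0.470, limma), the narrowest interval among the members.

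Ftl1 was at 712, 606 and 781 FPKM in WT and at 609, 663 and 725 FPKM in Hemgn-/- libraries, with the groups overlapping over most of their range. Its log2 difference was -0.07 (95% interval -0.30 to 0.16, adjusted p = 0.741, limma). The log2 ratio of Fth1 to Ftl1 inside a library, which scaling between libraries does not touch, was 3.12, 3.39 and 2.95 in WT and 3.17, 3.24 and 2.99 in Hemgn-/- libraries. An exact two-sided permutation test gave p = 1.0 for it, where the smallest p that 3 against 3 libraries allow is 0.1.

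Quantile normalization, which gives each library the same set of values by rank, turned Fth1 to a difference of 0.41 with an adjusted p of 0.00380 (limma). Fth1 stood at places 6, 6 and 7 in WT and 5, 4 and 5 in Hemgn-/- libraries, and the steps between places are wide at the top of the list. The ferritin genes have processed copies, and 4 of these are listed in the table, at up to 9.06 FPKM against at least 606 FPKM for Fth1 and Ftl1, so fragments could be split between a gene and its copies. Ftl1 also overlaps Gm10252 on the other strand, which was at or under 0.660 FPKM, and no strand setting of the counting was given.

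Tfrc (chr16:32608920-32632794, plus strand), the transferrin receptor through which dividing cells and red cell precursors take up iron, was at 11.03, 10.4 and 11.4 FPKM in WT. In Hemgn-/- libraries it was at 11.01, 10.9 and 9.70 FPKM. The log2 difference was -0.05 (95% interval -0.28 to 0.17, adjusted p = 0.793, limma). The mRNA with the 4 matches shown earlier thus had overlapping levels in both groups. The log2 ratio of Tfrc to Fth1 was -9.02 ± 0.10 in WT and -8.99 ± 0.13 in Hemgn-/- libraries (SD, n = 3 each, exact permutation p = 0.7).

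Steap3 (chr1:120190757-120272705, minus strand), the endosomal ferrireductase, was the lowest member. It was at 1.89, 1.53 and 1.52 FPKM in WT and at 1.09, 1.23 and 1.55 FPKM in Hemgn-/- libraries, or 171 to 256 fragments per library. The log2 difference was -0.21 with a wide 95% interval of -0.60 to 0.18 (adjusted p = 0.527, limma), so a 1.5-fold fall was not excluded by its interval.

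Slc11a2 (chr15:100387898-100425072, minus strand) encodes DMT1, which carries ferrous iron out of the endosome. It was at 2.80, 2.15 and 2.89 FPKM in WT and at 3.50, 2.60 and 3.33 FPKM in Hemgn-/- libraries, and WT replicate 3 lay above Hemgn-/- replicate 2. Its log2 difference was 0.20 (95% interval -0.16 to 0.55, adjusted p = 0.514, limma).

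Slc40a1 (chr1:45908068-45926523, minus strand) encodes ferroportin, the exporter of cellular iron. Slc40a1 was at 23.8, 22.3 and 25.7 FPKM in WT and at 24.4, 25.1 and 24.6 FPKM in Hemgn-/- libraries, and all Hemgn-/- values fell inside the WT range. This gave a log2 difference of 0.04 (95% interval -0.15 to 0.24, adjusted p = 0.801, limma).

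Slc11a1 (chr1:74375195-74386062, plus strand) encodes NRAMP1, a divalent metal transporter of the phagosome in macrophages and neutrophils. It was at 39.1, 40.4 and 35.0 FPKM in WT and at 44.3, 55.2 and 55.8 FPKM in Hemgn-/- libraries. Every Hemgn-/- library was above every WT library, as was so, in either direction, for 2 of 10 members and 27.4% of all genes tested. The log2 difference was 0.43 (SE 0.11, 95% interval 0.18 to 0.67), with an adjusted p of 0.0525 (limma), just short of the threshold.

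The call on Slc11a1 depended on the processing. It passed under 4 of 15 alternatives, with an adjusted p (limma) of 0.0481 for genes with a mean FPKM of at least 1, 0.0187 after rescaling to the same FPKM total, 0.0303 with voom on recovered fragments and 0.0217 without Hemgn-/- replicate 1. Over all 15 the adjusted p ran from 0.0187 to 0.189 and the log2 difference from 0.33 to 0.53. The log2 ratio of Slc11a1 to its paralog Slc11a2 was 3.44 ± 0.26 in WT and 3.67 ± 0.32 in Hemgn-/- libraries (SD, n = 3 each, exact permutation p = 0.5).

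**Figure D3:**
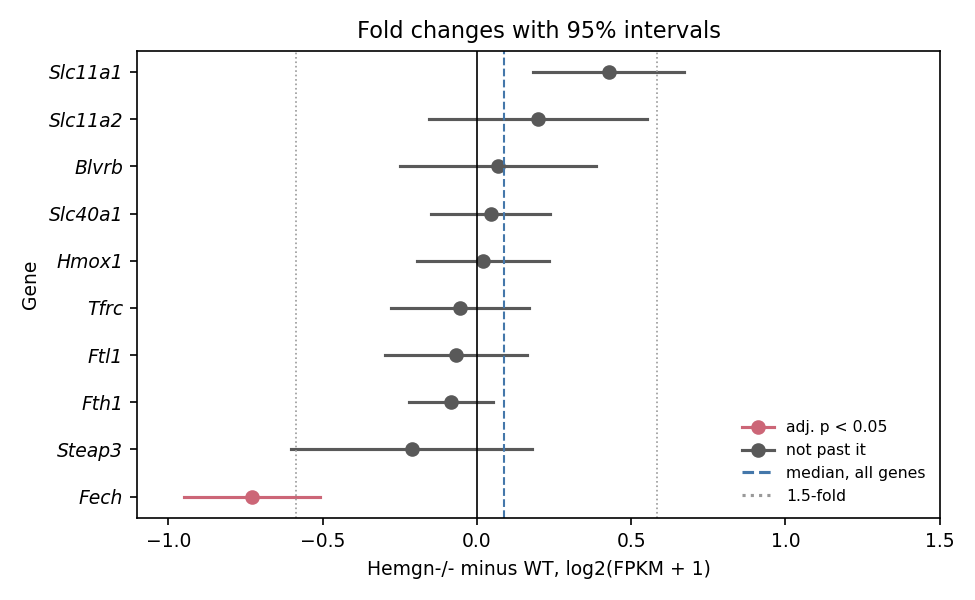
Hemgn-/- minus WT difference of each member on the log2(FPKM + 1) scale (points) with its 95% interval (bars), from limma over 3 libraries a group; red marks an adjusted p under 0.05, the dashed line the median of all genes (0.09) and dotted lines 1.5-fold. Fech lies at -0.73 with its interval below 0, Slc11a1 at 0.43 with its interval above 0, and the intervals of the other 8 genes include 0.

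Markers of phagocytes moved in both directions. Of 21 macrophage and monocyte markers, 19 were tested, 3 rose and 3 fell, and of 21 granulocyte markers, all tested, 1 rose and 9 fell. Among the most abundant, Lyz2 fell by 0.37, Ngp by 0.73 and Ltf by 0.67 on the log2 scale. The markers that rose, named after their values were seen, were Ccr2 (log2 difference 1.00), Adgre1 (0.51) and Csf1r (0.50) of the first list and Csf3r (0.37) of the second, all receptors of myeloid cells. Vcam1 and C1qb fell beside Lyz2, by 0.66 and 0.44. The summed macrophage and monocyte markers were 23060 to 25730 FPKM in WT and 16600 to 20720 FPKM in Hemgn-/- libraries, of which Lyz2, a lysozyme gene that neutrophils express too, made up 97.2 to 98.1%. Without Lyz2 the sums were 481.6 to 545.7 FPKM in WT and 431.9 to 511.9 FPKM in Hemgn-/- libraries, which overlap. Ly6c2 was the largest part of these sums, at 269.4 to 326.9 FPKM in WT and 216.5 to 296.4 FPKM in Hemgn-/- libraries. Their overlap thus says little about the other markers. Without passing the test, C1qa (log2 difference -0.42), C1qc (-1.12), Cd5l (-0.37) and Cd163 (-0.27) were lower in Hemgn-/- libraries without overlap. Siglec1 (0.33), Marco (0.65) and Fcgr1 (0.71) were likewise higher. The granulocyte sums were 78260 to 84090 and 51780 to 57590 FPKM, with median log2 differences of 0.02 and -0.36 for the lists. No marker of either list was at 0 in all libraries, and their part in the values of Slc11a1, ferritin and the heme breakdown genes was not tested.

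Hmox1 (chr8:75093621-75100589, plus strand) encodes the inducible heme oxygenase, which opens the heme ring. It was at 127, 126 and 106 FPKM in WT and at 112, 130 and 123 FPKM in Hemgn-/- libraries. The groups overlapped, and the log2 difference was 0.02 (95% interval -0.19 to 0.23, adjusted p = 0.930, limma).

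Blvrb (chr7:27447978-27466144, plus strand) encodes biliverdin reductase B, a flavin reductase abundant in red cells. It was at 10.9, 12.1 and 12.9 FPKM in WT and at 12.7, 15.1 and 10.3 FPKM in Hemgn-/- libraries, so that the lowest and the highest library were both Hemgn-/-. For Blvrb the log2 difference was 0.07 (95% interval -0.25 to 0.39, adjusted p = 0.817, limma). The log2 ratio of Hmox1 to Blvrb was 3.22 ± 0.25 in WT and 3.17 ± 0.24 in Hemgn-/- libraries (SD, n = 3 each, exact permutation p = 1.0). After adjustment over the 4 ratios every p was 1.0.

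Of the 10 members, 7 had a 95% interval that lay wholly within 1.5-fold of no difference: Fth1, Ftl1, Tfrc, Slc40a1, Hmox1, Blvrb and Slc11a2. The share of all genes with such an interval was 49.2%, and the count was 6 to 8 under the alternatives. On the log2(FPKM + 1) scale a difference of 1.5-fold is thus outside the interval for these 7 genes, while smaller differences are not excluded. That scale understates the change of low genes. For Slc11a2, at 2.15 to 3.50 FPKM, a 1.5-fold rise in FPKM itself is not excluded. With a pseudocount of 0.1 its log2 difference was 0.26 (SE 0.21).

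In WT libraries the levels ran, from high to low by mean FPKM, Fth1, Ftl1, Hmox1, Slc11a1, Slc40a1, Fech, Blvrb, Tfrc, Slc11a2 and Steap3. Blvrb and Tfrc were the neighbours in that order whose ranges overlapped. In Hemgn-/- libraries Fech stood in place 8 instead of 6, below Blvrb and Tfrc, and the order of the others was the same. FPKM divides by the annotated exon length, which is 3469 bases for Fth1 over all its transcripts, so levels between genes depend on the annotation.

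Other genes of iron and heme metabolism were read from 6 lists with 111 genes in all, of which 107 were in the table and 86 were tested. Of these 86, 4 rose and 1 fell, where 4.37% of all genes tested rose and 2.09% fell, so the counts are near the background and say nothing particular about the lists. Of 13 genes tested for iron uptake and trafficking and 10 for heme turnover and transport, none passed the test, and the median log2 differences were 0.02 and 0.07. Iron storage and sensing had 1 gene that rose of 11 (median 0.05), iron-sulfur cluster assembly 1 of 18 (median 0.00), and the BACH1 and NRF2 axis 2 of 21 (median 0.14). Heme synthesis had 1 gene that fell of 14 (median 0.03), which was Alas2.

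**Figure D4:**
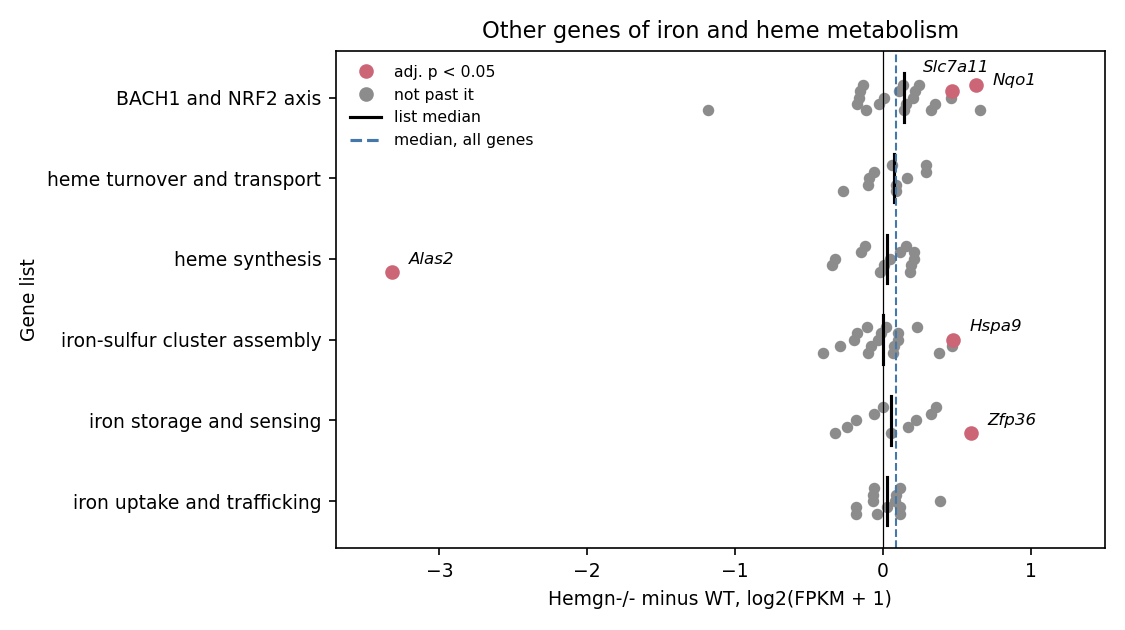
Hemgn-/- minus WT difference on the log2(FPKM + 1) scale of each tested gene (points) in the 6 lists, with black lines at list medians and a dashed line at the median of all genes (0.09); red points with names have an adjusted p under 0.05. Alas2 lies at -3.32, the 4 genes that rose lie between 0.46 and 0.63, and list medians lie between 0.00 and 0.14.

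The sensors and regulators of cellular iron were among the genes that did not pass the test. Aco1 and Ireb2, which encode the iron regulatory proteins, had log2 differences of 0.32 (adjusted p = 0.340, limma) and -0.06 (adjusted p = 0.790). Ncoa4, the receptor that delivers ferritin to the lysosome, was at 54.3, 54.9 and 52.6 FPKM in WT and at 42.5, 44.7 and 49.5 FPKM in Hemgn-/- libraries. Its groups did not overlap, and its log2 difference was -0.24 (adjusted p = 0.123, limma). Tfr2, the second transferrin receptor, was at 0.856 to 1.63 FPKM over all libraries, and Slc25a37, the mitochondrial iron importer of red cell precursors, had a log2 difference of -0.07.

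Zfp36 rose in the storage and sensing list, from 600.7, 512.2 and 551.9 FPKM to 845.2, 803.7 and 865.8 FPKM. It encodes tristetraprolin, which destabilises mRNAs with AU-rich elements, cytokine mRNAs and Tfrc mRNA among them, and is also an early response gene. Zfp36 had a log2 difference of 0.60 (SE 0.07, adjusted p = 0.00236, limma), and all 15 alternatives kept the call. Tfrc, given earlier, had overlapping levels in the same libraries.

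Hspa9, the mitochondrial chaperone that helps transfer iron-sulfur clusters and imports proteins, rose from 28.4, 27.5 and 30.1 FPKM to 42.8, 38.1 and 39.9 FPKM. Its log2 difference was 0.48 (SE 0.08, adjusted p = 0.0118, limma). The call was lost without WT replicate 1 (adjusted p = 0.0509, log2 difference 0.47), without Hemgn-/- replicate 3 (adjusted p = 0.0586, log2 difference 0.48) and without a trend in eBayes (adjusted p = 0.0647).

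BACH1 is a heme-sensing repressor of Hmox1 and the ferritin genes, and NRF2, encoded by Nfe2l2, activates them. Bach1 was at 4.74, 3.59 and 2.84 FPKM in WT and at 5.08, 8.48 and 5.86 FPKM in Hemgn-/- libraries, without overlap, but did not pass the test (log2 difference 0.65, adjusted p = 0.103, limma). Nfe2l2 was at 42.7 to 49.0 FPKM in WT and 51.9 to 55.2 FPKM in Hemgn-/- libraries (log2 difference 0.25, adjusted p = 0.121, limma). Neither gene passed the test.

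Within that axis 2 genes rose. Nqo1, a quinone reductase, was at 3.86, 5.21 and 5.72 FPKM in WT and at 8.07, 7.70 and 8.51 FPKM in Hemgn-/- libraries (log2 difference 0.63, adjusted p = 0.0339, limma). Slc7a11, the cystine importer, was at 6.33, 6.09 and 6.12 FPKM in WT and at 9.08, 9.19 and 8.47 FPKM in Hemgn-/- libraries (log2 difference 0.46, adjusted p = 0.0285, limma). Both calls lay near the threshold. Nqo1 passed under 4 and Slc7a11 under 5 of 15 alternatives, with adjusted p-values up to 0.126 and 0.0916, and Slc7a11 lost its call whichever library was left out, with log2 differences of 0.44 to 0.50. Nqo1 lost it without any library but WT replicate 3, with log2 differences of 0.49 to 0.67 where it was lost.

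Of the remaining partners of heme breakdown, Hmox2, the constitutive heme oxygenase, was at 16.96 to 18.98 FPKM in WT and 16.3 to 20.1 FPKM in Hemgn-/- libraries. Blvra, the main biliverdin reductase, was at 10.3 to 11.5 and 7.67 to 11.9 FPKM. The log2 differences were 0.06 (adjusted p = 0.778, limma) and -0.10 (adjusted p = 0.745), and both pairs of groups overlapped.

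**Figure D5:**
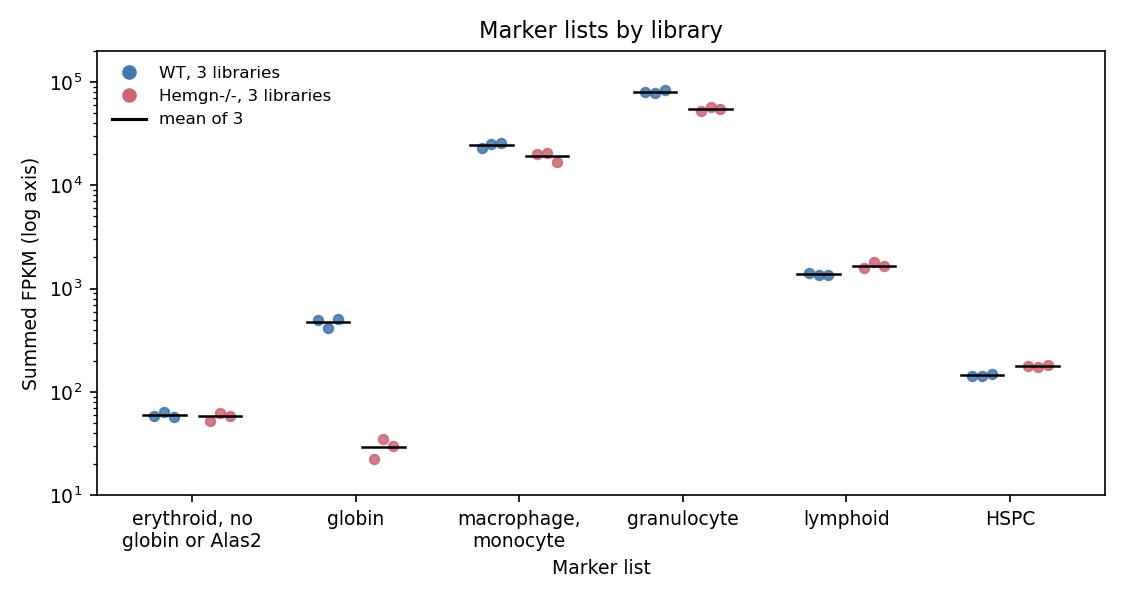
Summed FPKM of marker lists on a log axis for 3 WT (blue) and 3 Hemgn-/- (red) libraries, with a black line at each mean; globin genes are set apart from the 18 erythroid markers left without them and Alas2. Globin sums lie at 420.3 to 513.3 in WT and 22.3 to 35.0 in Hemgn-/- libraries, and granulocyte sums are the highest in both groups.

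Lymphoid and HSPC markers were also read beside these results. Of 15 lymphoid markers, 5 rose (Cd79b, Ms4a1, Siglech and Cd3d among them) and none fell, with sums of 1339 to 1409 FPKM in WT and 1565 to 1792 FPKM in Hemgn-/- libraries and a median log2 difference of 0.25. Of 14 HSPC markers tested, 3 rose (Ptprc, Cd34 and Cd48) and none fell, with sums of 141.7 to 147.8 and 176.3 to 183.0 FPKM and a median of 0.35. The HSPC sums were mostly Ptprc, which other leukocytes express too, and no marker of either list was at 0 in all libraries. The part of these lists in the members' values was not tested.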

How the data were processed

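The values the authors deposited are FPKM of each gene in each library, and per the labels the libraries were made with a TruSeq kit, whereas the study describes Smart-Seq2. The submitters' processing notes name GRCm38, HISAT2 2.1.0, Bowtie2 2.2.3, TopHat2 and HTSeq 0.6.0. No column was left unmapped (0 columns). Of 24965 genes, 24921 matched GENCODE M21, and 4 listed pathway genes were not analysed here. Low values came out as whole fragments for 95.2% of 13472 genes (within 0.01 of a whole number).

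Values were compared as log2(FPKM + 1) with limma 3.58.1 in R 4.3.3 (eBayes with a trend) for genes above 1 FPKM in at least 1 library, with two-sided p-values adjusted by Benjamini-Hochberg over all genes. This scale understates the change of low genes. Ratios were compared by exact permutation. On simulated data 175 of 200 genes changed 2-fold were found, and 16 of 12136 unchanged genes were called. The simulation gave every gene the same small relative spread beyond sampling noise, unlike the real replicates, so these rates need not hold for the real data. Replicates differed by more than sampling noise (chi-square per gene 17.6 to 35.2). Alternatives were another pseudocount (0.1), filters, scalings, a replicate block, voom and leaving out each library. Members and lists were chosen with earlier results of these data known. Named genes are the members, Hemgn, 11 partners fixed by name, and list genes past the threshold whose groups do not overlap, at most 5 a direction and list. From marker lists the rule takes at most the 3 most abundant genes, and the other marker genes and the heme enzymes outside the rule were chosen after their values were seen. Some listed genes are not reported here by name. Python 3.11.15, numpy 2.4.6, pandas 2.3.3 and matplotlib 3.10.9 did the rest.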

Additional observations from a re-analysis of the deposited data

How the results depend on the processing

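Fech, Alas2 and Zfp36 kept their direction and their call under all 15 alternatives. The number of members called was 2 instead of 1 for genes with a mean FPKM of at least 1, for the same FPKM total, with voom (Slc11a1 in each) and with quantile normalization (Fth1), and it was 1 to 2 when 1 library was left out. Hemgn had a log2 difference of -1.37 (adjusted p = 0.0613) with no filter on low values, and of -1.58 to -1.20 when 1 library was left out, where it missed the threshold without WT replicate 3 (adjusted p = 0.0503, log2 difference -1.32, limma). All genes called numbered 887 (600 higher and 287 lower), 466 with no filter and 390 without a trend, and 373 to 688 when 1 library was left out (373 and 525 without Hemgn-/- replicates 3 and 2, 470 and 494 without WT replicates 1 and 3). The split was 341 higher and 386 lower with median-ratio scaling, 368 and 346 with quantile normalization and 1049 and 238 for the same FPKM total. In the pathway lists 5 genes were called, 8 with median-ratio scaling, 10 for the same FPKM total, 2 without a trend and 2 to 4 when 1 library was left out, namely 2 without the first WT or the third Hemgn-/- library and 3 without the second of either group. The causes of these shifts were not tested.

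Small differences changed sign, none past the threshold but Fth1. With median-ratio scaling Slc40a1 was at -0.055, Hmox1 at -0.083, Blvrb at -0.027 and Hmox2 at -0.037. With quantile normalization they were at -0.030, -0.029, -0.011 and -0.026, and Fth1 at 0.41. For the same FPKM total Fth1 was at 0.0044, Ftl1 at 0.021, Tfrc at 0.029, Ireb2 at 0.013 and Slc25a37 at 0.0085. When 1 library was left out Ftl1 ran from -0.17 to 0.016, Slc40a1 from -0.0037 to 0.096, Hmox1 from -0.067 to 0.078, Blvrb from -0.056 to 0.20, Blvra from -0.22 to 0.067, Slc25a37 from -0.12 to 0.027 and Tfr2 from -0.18 to 0.081. Ncoa4 passed the test with median-ratio scaling (log2 difference -0.34) and Nfe2l2 for the same FPKM total (0.34).

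Libraries of the same number did not deviate together (correlations -0.04, -0.01 and 0.01), and not every library correlated best with its own number. The values thus give no sign of a pairing by number, but with 3 libraries a group they cannot exclude one. With the replicate block 636 genes were called in all and 3 in the pathway lists (Nqo1 and Slc7a11 lost), and the call on each member was the same. Depth limits the low members most, Steap3 with 171 to 256 fragments and Slc11a2 with 350 to 612.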
